A study of Homo sapiens with 6 samples.

Results

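The S100 genes encode small calcium-binding proteins, and 10 of them (S100A2, S100A4, S100A6, S100A7, S100A8, S100A9, S100A10, S100A11, S100A14 and S100P) were examined in H1975 cells, a human non-small cell lung cancer line with mutant EGFR. The table held 27216 rows and 21 S100 genes, so these are 10 of 21. The set was chosen by the size of the falls of S100A7 and S100A8 between the groups compared here, so the values of the 10 genes are given as a description with no test. By log2 difference over all rows tested, S100A8 ranked 2, S100A7 ranked 3 and S100A9 ranked 18 among the falls. SERPINB4 (-5.83) stood before them, and OLFM4 (-5.11) and CCL20 (-5.07) came directly after S100A7.

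RNA was sequenced from 3 samples of parental cells at 0 h and 3 samples of adapted cells, which had 72 h of Osi, the EGFR inhibitor osimertinib, at 1000 nM in the labels (a list of reagents in the study's supplement gives a lower dose). Apoptotic cells were washed away with PBS, so that the RNA was that of the cells that remained, and the labels describe a digestion of linear RNA with RNase R, a step that the study's methods, which speak of total RNA, do not mention. Column names call the parental samples DMSO, and the labels do not say whether these cells were untreated or kept in the solvent, so that drug and time in culture cannot be told apart. The study's methods speak of independent experiments in general, but the labels do not say that these replicates were separate cultures, so the spread between them may be technical. The deposited values were read as log2(FPKM + 1). FPKM scales fragments to transcript length and to the sample's total, and levels of different genes are set side by side on that scale. If linear RNA was digested, unequal loss of transcripts would also enter such comparisons between genes, and this was not tested. The read depth of the samples is unknown. Correlations across rows were 0.997 among parental samples, 0.991 to 0.996 among adapted samples and 0.963 to 0.973 between groups, as a description. The smallest p that exact permutation of 3 samples against 3 allows is 0.1.

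S100 proteins act as calcium sensors: when calcium binds, they open a face that grips partner proteins, among them annexins and cytoskeletal proteins. S100A8 and S100A9 pair as calprotectin, a metal-binding complex that is plentiful in neutrophils and is also made by stressed or inflamed epithelium, and S100A7 (psoriasin) is induced in inflamed skin. Secreted forms act on receptors such as RAGE and TLR4. Most of the family lies in 1 cluster on chromosome 1, within the epidermal differentiation complex, beside the genes of the cornified envelope.

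The stretch of 100 bases before the transcription start is shown for 6 members, since these genes fall into promoters with and without a TATA-type box and with few or many CG dinucleotides. Capitals mark TATAA in the position of such a box and each CG pair, read 5′ to 3′ along the strand of the gene, from RefSeq (GRCh38.p14). S100A8 (chr1:153391074-153391173, minus strand), S100A9 (chr1:153357754-153357853, plus strand) and S100A7 (chr1:153460652-153460751, minus strand) were far lower in adapted cells. S100A6 (chr1:153535992-153536091), S100A10 (chr1:151993860-151993959) and S100A11 (chr1:152037005-152037104), all on the minus strand, were less changed, with log2 differences of -1.25, 0.19 and -0.07. S100A4, which also has TATAA in that position and is not shown, had a difference of 0.46.
S100A8: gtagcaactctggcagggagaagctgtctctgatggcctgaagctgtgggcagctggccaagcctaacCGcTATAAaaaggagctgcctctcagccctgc
S100A9: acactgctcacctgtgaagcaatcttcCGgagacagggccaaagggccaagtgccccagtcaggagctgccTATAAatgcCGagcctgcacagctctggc
S100A7: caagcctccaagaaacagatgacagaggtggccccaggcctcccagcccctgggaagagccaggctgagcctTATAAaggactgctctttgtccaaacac
S100A6: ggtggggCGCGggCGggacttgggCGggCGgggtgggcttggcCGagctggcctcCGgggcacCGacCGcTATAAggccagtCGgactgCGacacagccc
S100A10: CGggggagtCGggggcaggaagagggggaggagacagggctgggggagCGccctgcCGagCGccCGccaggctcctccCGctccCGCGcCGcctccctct
S100A11: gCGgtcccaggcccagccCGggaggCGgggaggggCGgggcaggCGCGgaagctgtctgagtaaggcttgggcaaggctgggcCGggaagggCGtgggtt

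RefSeq gave 13 promoter windows for the 10 members, 3 of them for S100A8 and 2 for S100A2. Each window covers 250 bases before the start and 50 after it. TATAA on the gene's strand, beginning 20 to 40 bases before the start, was found in 7 members, at 28 bases in S100A7 and S100P, 29 in S100A9, S100A8 (1 of its 3 windows) and S100A14, 30 in S100A6 and 31 in S100A4. The same letters stood in that position in 3.91% of all 35116 windows. S100A10, S100A11 and S100A2 did not hold them there. The longer TATAAA, which contains TATAA, was in that place in 5 members (S100A9, S100A8, S100A7, S100A4 and S100P) and in 2.30% of all windows.

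Windows also differed in CG dinucleotides, which were counted over 300 bases. S100A10 held 32, S100A6 31 and S100A11 22, against a median of 14 over all windows and an upper quartile of 28.0. S100A4 held 8, S100A9, S100A2, S100A14 and S100P each held 5 (the second S100A2 window 4), S100A7 held 3 and S100A8 held 2, where the lower quartile of all windows was 4. On either strand, TGANTCA (an AP-1 motif) occurred in S100A2 alone of the members and in 7.71% of all windows, and TTGCNNAA (a C/EBP motif) in S100A11 alone and in 10.5%. TTCNNNGAA (a STAT motif) and an NF-kappaB motif (GGG, any 2 bases, TTTCC), found in 7.66% and 1.91% of all windows, were in no member window. These are matches of letters in a short window and say nothing of binding.

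**Figure D1:**
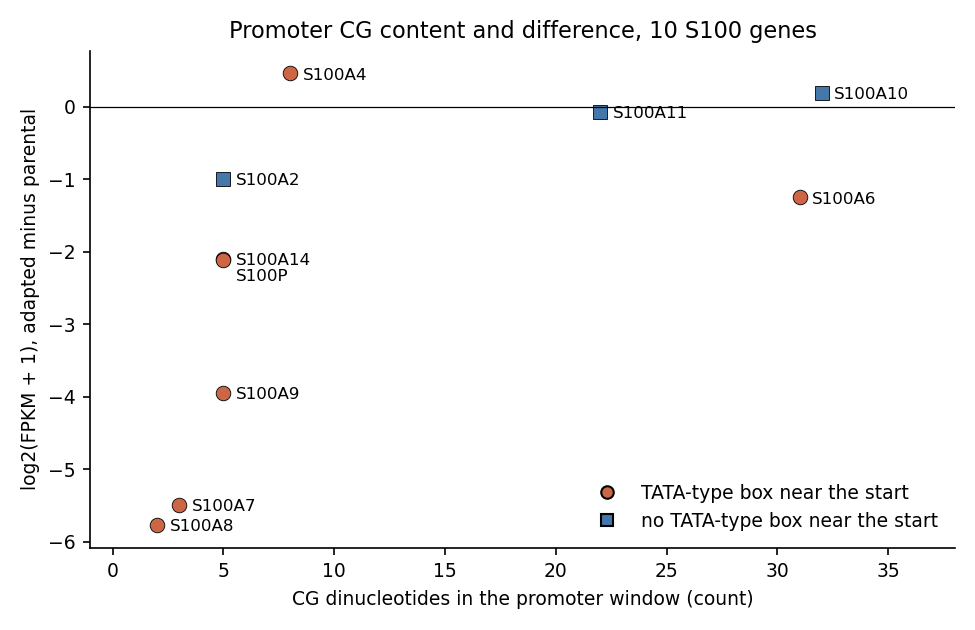
Count of CG dinucleotides in the 300-base promoter window (x axis) against the log2 difference, adapted minus parental (y axis), for the 10 members. Circles have TATAA 20 to 40 bases before the start and squares do not. The 3 largest falls of the 10 (S100A8, S100A7 and S100A9) sit at 5 CG or fewer, as do S100A14, S100P and S100A2. S100A6, with 31, sits at -1.25, S100A10, with 32, at 0.19, and S100A4, with 8, at 0.46. The 10 points share libraries and were chosen for this contrast, so no test is given.

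S100A8 and S100A9, the 2 subunits of calprotectin, were both lower in every adapted sample. S100A8 (chr1:153390032-153391188, minus strand, GENCODE v29 on GRCh38) was at 84.3, 91.1 and 90.4 FPKM in the parental samples and at 1.13, 0.334 and 0.542 FPKM in adapted replicates 1, 2 and 3. On the log2 scale, that was 6.48 ± 0.06 (SD, n = 3) against 0.71 ± 0.35, a difference of -5.77. The mean FPKM was 133-fold lower in adapted cells, and 202-fold lower without adapted replicate 1, the highest of the 3. It was 106-fold lower without replicate 2 and 121-fold lower without replicate 3. The adapted values are near the floor, so the size of this fold is uncertain. In these bulk samples, fewer cells with the transcript and less RNA per cell cannot be told apart.

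S100A9 (chr1:153357854-153361027, plus strand) had the highest level of the 10 in parental cells, at 1897, 1933 and 2034 FPKM. In adapted replicates 1, 2 and 3 it was at 310, 82.4 and 76.4 FPKM. All adapted samples were below all parental samples, yet the transcript was still well above that of S100A8. The means were 10.93 ± 0.05 and 6.98 ± 1.13 on the log2 scale (SD, n = 3), a difference of -3.95. The mean FPKM was 12.5-fold lower, and 24.6-, 10.1- and 9.96-fold lower without adapted replicate 1, 2 or 3 in turn. The RNAs of the calprotectin pair were therefore unequal in both states: S100A8 was 4.53% ± 0.157 of S100A9 in parental and 0.493% ± 0.189 in adapted cells, by FPKM (SD, n = 3). This share was 4.44%, 4.71% and 4.44% in the parental samples and 0.364%, 0.405% and 0.709% in the adapted samples, with no overlap. The adapted shares rest on low values of S100A8 (1.13, 0.334 and 0.542 FPKM), and RNA shares say nothing of the proteins.

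S100A7 (chr1:153457744-153460701, minus strand), the gene of psoriasin, followed the same course. It was at 150, 150 and 165 FPKM in parental samples and at 7.04, 0.792 and 1.91 FPKM in adapted replicates 1, 2 and 3. The groups did not overlap, and adapted replicate 1 was again the highest of its group. The log2 means were 7.28 ± 0.07 and 1.80 ± 1.11 (SD, n = 3), a difference of -5.49. The mean FPKM was 47.7-fold lower, and 115-, 34.6- and 39.6-fold lower without adapted replicate 1, 2 or 3 in turn. The adapted values are low, so the size of this fold is uncertain. S100A7A, a close paralog on the same stretch of chromosome 1, was at 2.37, 2.17 and 2.30 FPKM and at 0.232, 0 and 0.0551 FPKM in the adapted samples. How reads shared by the paralogs were counted is not stated, so the split between S100A7 and S100A7A is uncertain.

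**Figure D2:**
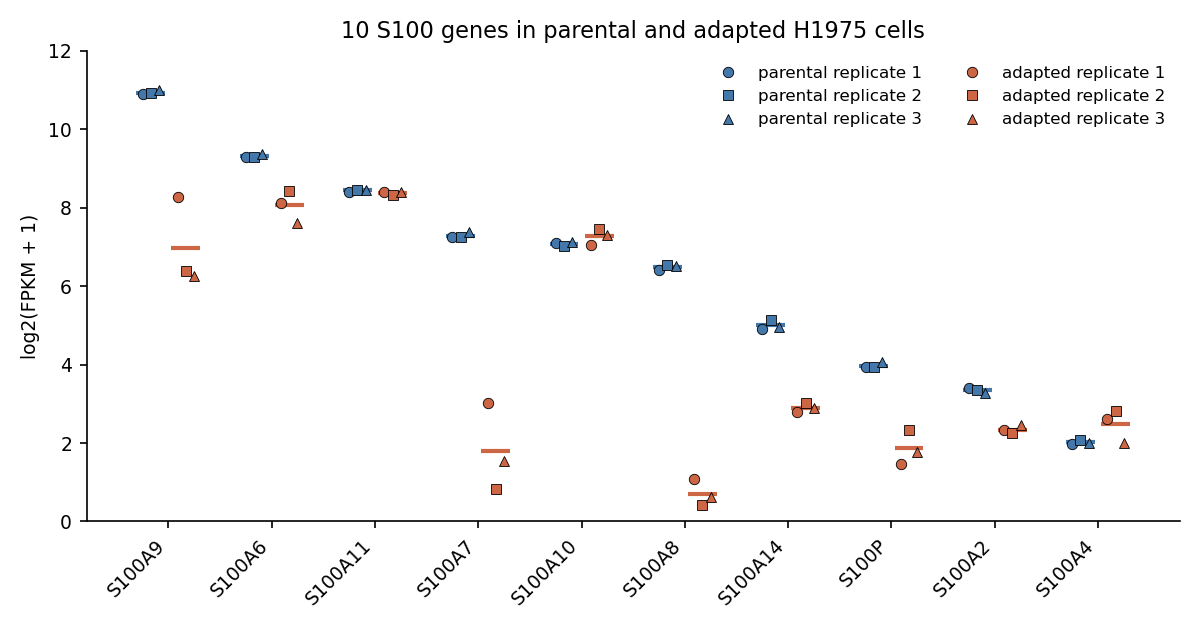
Level of each of the 10 S100 genes on the log2(FPKM + 1) scale (y axis) in the 3 parental and 3 adapted samples. Marker shapes are replicate numbers and bars are group means. S100A7, S100A8 and S100A9 drop furthest, S100A7 and S100A9 spread most between adapted replicates (SD 1.11 and 1.13), and S100A10 and S100A4 overlap between groups.

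The epithelial members S100A14, S100P and S100A2 were lower by smaller amounts. S100A14 (chr1:153614255-153616986, minus strand), a gene of epithelial cells, was at 29.1, 34.1 and 30.1 FPKM in parental and at 5.95, 7.18 and 6.37 FPKM in adapted samples. Its log2 means were 5.0 ± 0.12 and 2.90 ± 0.12 (SD, n = 3), a difference of -2.10, or 4.79-fold lower by mean FPKM. The adapted samples were here as close to each other as the parental samples were. S100P, the only member outside chromosome 1 (chr4:6693069-6697170, plus strand) and a partner of ezrin, was at 14.2, 14.3 and 15.7 FPKM in parental and at 1.77, 4.06 and 2.43 FPKM in adapted samples. Its log2 difference was -2.11 (3.97 ± 0.07 against 1.86 ± 0.44), and mean FPKM was 5.34-fold lower. S100A2 (chr1:153561108-153567890, minus strand), a protein of basal epithelium, was at 9.50, 9.25 and 8.72 FPKM in parental and at 4.02, 3.76 and 4.47 FPKM in adapted samples. Its groups did not overlap, with a log2 difference of -1.0 (3.34 ± 0.06 against 2.34 ± 0.10) and a mean FPKM 2.24-fold lower.

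S100A6 and S100A4 are near neighbours in the cluster and did not move alike. S100A6 (calcyclin; chr1:153534599-153536244, minus strand), which binds annexins and the calcyclin-binding protein, was at 620, 626 and 658 FPKM in parental and at 279, 341 and 196 FPKM in adapted samples. All adapted samples were lower, with a log2 difference of -1.25 (9.31 ± 0.05 against 8.06 ± 0.40, SD, n = 3) and a mean FPKM 2.33-fold lower. S100A4 (metastasin; chr1:153543613-153550136, minus strand), which binds non-muscle myosin heavy chain, was the lowest member in parental cells, at 2.94, 3.21 and 3.02 FPKM. In adapted replicates 1, 2 and 3 it was at 5.16, 6.05 and 2.96 FPKM, so replicates 1 and 2 lay above the parental range and replicate 3 within it. Its log2 difference was 0.46 (2.02 ± 0.05 against 2.48 ± 0.43). S100A4 shares 2044 bases with S100A3 on the same strand, so the 2 genes' values are uncertain.

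S100A10 and S100A11, the members that pair with annexins A2 and A1, were nearly level. S100A10 (chr1:151982915-151994390, minus strand), which with annexin A2 forms a plasminogen-binding complex at the cell surface, was at 136, 129 and 138 FPKM in parental and at 130, 173 and 157 FPKM in adapted samples. The groups overlapped, and the log2 difference of 0.19 (7.08 ± 0.05 against 7.26 ± 0.21) was smaller than the SD between adapted samples. S100A11 (chr1:152032506-152047907, minus strand) was at 340, 352 and 351 FPKM in parental and at 335, 319 and 338 FPKM in adapted samples. The lowest parental sample was just above the highest adapted sample, and the log2 difference was -0.07 (8.45 ± 0.03 against 8.37 ± 0.04). With quantile normalization it was -0.03.

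Among the 10 members, 8 had every adapted sample below every parental sample, and the other 2 overlapped. Over all rows tested, 30.6% were lower and 35.7% higher without overlap, 66.3% in all. Past the limma threshold were 7 members, all lower, against 26.2% of all rows tested that were lower and 56.9% in either direction. The 3 not past it were S100A4, S100A10 and S100A11. The median log2 difference of the members was -1.68, where that of all rows tested was 0.0280, and 7 members were lower by more than 1 on the log2 scale, against 5.24% of all rows tested. The rule that chose the members used this contrast, so nothing is read from these counts. All 10 passed the filter on low values (a mean of at least 1 on the log2 scale), S100A8 through its parental samples, since its adapted mean was under 1.

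The order of the family by level was different in the 2 states. In parental cells S100A9 (1955 ± 71.0 FPKM, SD, n = 3) came before S100A6 (635 ± 20.6), S100A11 (348 ± 6.59), S100A7 (155 ± 8.20), S100A10 (134 ± 4.87), S100A8 (88.6 ± 3.74), S100A14 (31.1 ± 2.63), S100P (14.7 ± 0.815), S100A2 (9.16 ± 0.400) and S100A4 (3.06 ± 0.136), and no neighbours in that order overlapped. In adapted cells, ordered by mean log2 level, S100A11 (331 ± 10.3 FPKM) and S100A6 (272 ± 72.4) came first and overlapped. S100A10 (154 ± 21.8) followed, apart from S100A6, and then S100A9 (156 ± 133), whose samples overlapped those of S100A10 and, through adapted replicate 1, those of S100A6. Far below them came S100A14 (6.5 ± 0.626), S100A4 (4.72 ± 1.59), S100A2 (4.08 ± 0.359), S100P (2.76 ± 1.18), S100A7 (3.25 ± 3.33) and S100A8 (0.668 ± 0.412), in which each neighbour overlapped the next.

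Summed over the 10 genes, FPKM was 3283, 3341 and 3493 in the parental samples and 1080, 938 and 787 in the adapted samples. The means were 3373 ± 108 and 935 ± 147 (SD, n = 3), which are 0.881% and 0.245% of the summed FPKM of all rows. S100A9 made up 58.0% ± 0.246 of the family total in parental cells and 28.7%, 8.78% and 9.71% in adapted replicates 1, 2 and 3. Without S100A9, the other 9 genes summed to 1386, 1409 and 1459 FPKM in parental and to 770, 856 and 711 FPKM in adapted samples, also with no overlap. The share of S100A11 was 10.3% in parental and 36.0% ± 6.22 in adapted cells, that of S100A6 18.8% and 29% ± 6.32, and that of S100A10 3.98% and 16.8% ± 4.21. S100A7 made up 4.60% ± 0.106 of the family total in parental cells and 0.652%, 0.0844% and 0.243% in adapted replicates 1, 2 and 3, so its adapted mean of 0.326% rests largely on replicate 1. S100A8 made up 2.63% ± 0.0872 in parental cells and 0.105%, 0.0356% and 0.0689% in the same adapted samples.

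**Figure D3:**
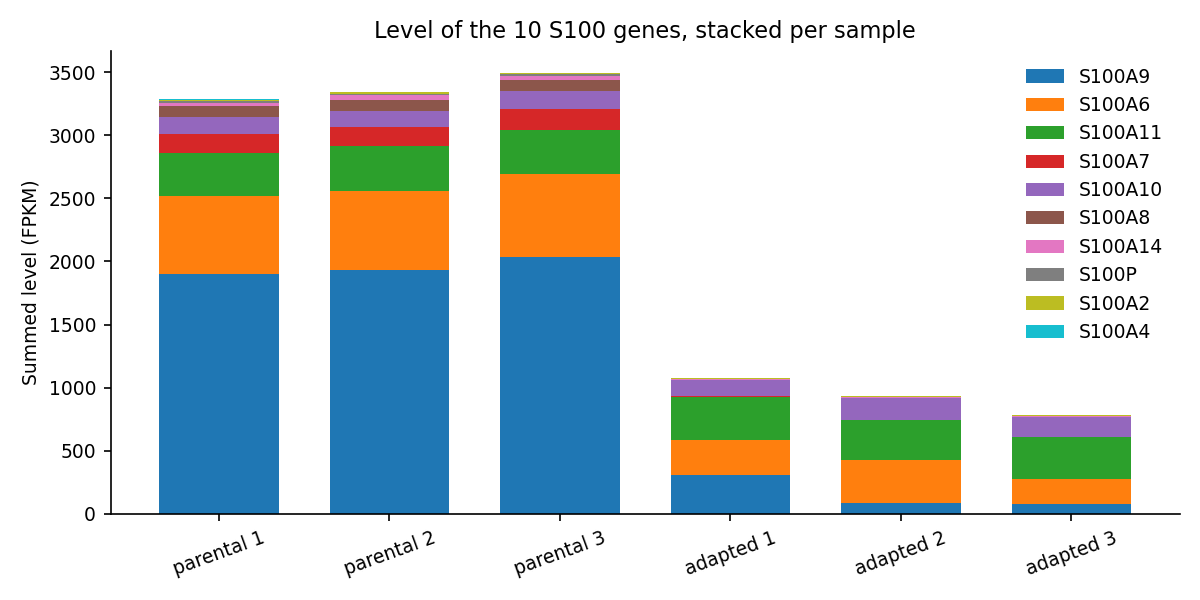
Summed FPKM of the 10 S100 genes (y axis, linear, from 0) in each of the 6 samples, stacked by gene. S100A9 fills most of each parental bar (58.0% on average), and the adapted bars, at 787 to 1080 FPKM, consist mainly of S100A11, S100A6, S100A10 and S100A9.

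The adapted replicates differed among themselves by gene. Replicate 1 was the highest of the 3 for S100A7, S100A8 and S100A9 and the lowest for S100A10, S100A14 and S100P. Replicate 2 was the highest for 5 members (S100A4, S100A6, S100A10, S100A14 and S100P), and replicate 3 for S100A2 and S100A11. The order of the 3 libraries therefore differed from member to member. Over all rows, 8371 differed between the groups without adapted replicate 1, against 6452 without replicate 2 and 6657 without replicate 3. Whether a difference of the whole replicate 1 library lies behind the spread of S100A7 and S100A9 was not tested.

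Profiles most like those of S100A7 and S100A8 were ranked by the Euclidean distance between mean-centred log2 values over the 6 samples, a description only. Nearest to S100A7 were S100A8 (1.14), OLFM4 (1.22), the mucin MUC5B (1.32), SERPINB4 (1.36) and SERPINB3 (1.48), the last 2 being squamous cell carcinoma antigens. Nearest to S100A8 were SERPINB4 (0.24), the chemokine CCL20 (1.10), S100A7 (1.14), SERPINB3 (1.18) and IL1A (1.29). OLFM4, like S100A7, was highest in replicate 1 of the adapted samples, at 3.22 against 0.13 and 0.17 on the log2 scale. SERPINB4 was at 0.63, 0.27 and 0.32 in the same samples.

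Of the 11 other S100 genes in the table, 2 passed the filter. S100A16, a widely expressed member, fell, from 66.4, 67.9 and 68.3 FPKM to 53.4, 37.1 and 37.2 FPKM, a log2 difference of -0.67 (SE 0.14, limma adjusted p = 0.00449), lower in 3 of 3 adapted samples. S100A13, which shares 3435 bases with S100A1 on the opposite strand, had a log2 difference of -0.20 (95% interval -0.55 to 0.15, limma adjusted p = 0.286). Without the filter, where 16.7% of all rows fell, S100A7A (-1.59, adjusted p = 1.63e-04) and S100A12 (-0.97, adjusted p = 0.00106), a neutrophil-type member next to S100A8, also fell. S100A1, S100A3 and S100A5 had log2 differences of -0.56, -0.49 and -0.34 that were not past the threshold in that fit. S100A7L2, S100B, S100G and S100Z were listed at 0 in every sample.

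The genes are given here in their order along chromosome 1, with no test of position, since S100A7 and S100A8 were chosen for their falls. S100A9, S100A12, S100A8, S100A7A, S100A7L2 and S100A7 lie within 103 kb, and each had a lower mean in adapted cells except S100A7L2, which was at 0 throughout. S100A12 (mean FPKM 1.25 in parental and 0.158 in adapted cells) and S100A7A (2.28 and 0.0956) were near the floor. S100A7, S100A8 and S100A9 are members of the chosen set, so nothing is read from this shared direction. S100A6 to S100A1 fill another 97.4 kb that starts 73.9 kb further on, where the members' differences ran from -2.10 (S100A14) to 0.46 (S100A4). S100A11 ends 1310 kb before S100A9, on the other side of the cornified envelope genes, and S100A10 lies beyond it. S100P, on chromosome 4, had a difference (-2.11) close to that of S100A14. PGLYRP4, a peptidoglycan recognition protein whose gene ends 9.01 kb before S100A9, had a log2 difference of -0.04 (adjusted p = 0.672), and CHTOP, next to S100A1 on the far side of the cluster, one of -0.03 (adjusted p = 0.787). Of 18 listed neighbours beyond the cluster, 15 were tested, of which 3 rose, 2 fell and 10 were not past the threshold. Over all rows tested, 30.7% rose and 26.2% fell. INTS3 (0.54, adjusted p = 3.56e-04), CREB3L4 (0.40, 0.00297) and SNAPIN (0.27, 0.0131) rose, while GATAD2B (-0.44, 0.00165) and CRTC2 (-0.33, 0.0243) fell, all as log2 differences with limma adjusted p. The calls for SNAPIN and CRTC2 were lost when parental replicate 1 (adjusted p = 0.0592 and 0.0763) or parental replicate 2 (0.0537 and 0.0859) was left out, which left 3 neighbours called.

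**Figure D4:**
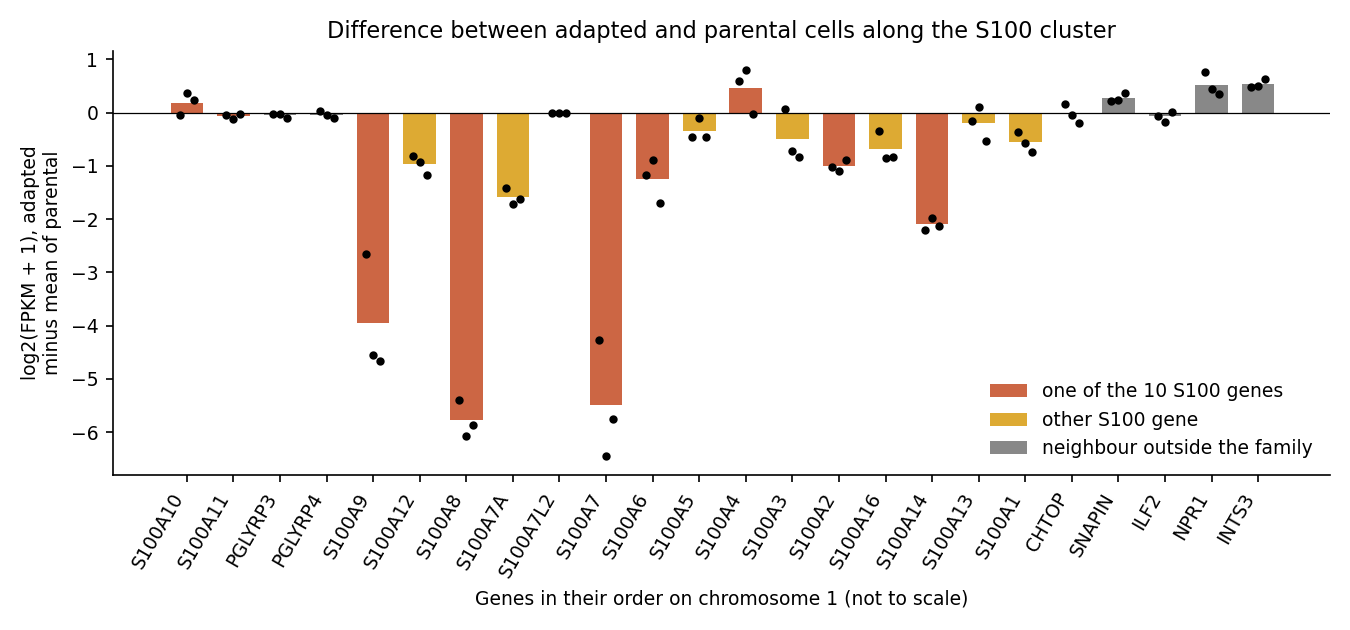
Difference from the parental mean on the log2 scale (y axis) for S100 genes and neighbours in their order along chromosome 1 (x axis, order only, not to scale; the cornified envelope genes between S100A11 and the rest are left out). Bars are the mean of the 3 adapted samples and dots are each adapted sample. The longest bars are those of S100A8, S100A7 and S100A9, and S100A7L2 is at 0.

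The cornified envelope genes lie between S100A11 and the rest of the cluster, and most of them were hardly detected. Of 26 in the table, 10 were listed at 0 in every sample and 6 passed the filter, of which 5 fell and 1 rose. Over all rows tested, 26.2% fell and 30.7% rose. The 5 that fell passed through their parental samples, with adapted means under 1 on the log2 scale, so their direction follows from the filter and is not read as a result about the group. The small proline-rich proteins, cross-linked into the envelope of keratinocytes, made up all 6. SPRR2A fell from 9.36 ± 0.185 to 0.197 ± 0.198 FPKM (SD, n = 3), a log2 difference of -3.13 (limma adjusted p = 5.79e-05 in the fit with no filter). SPRR2F (-2.48) and SPRR1B (-1.85) also fell, and SPRR3 rose by 0.68 (adjusted p = 0.00570). In the fit with no filter, where 16.7% of all rows fell, SPRR2E fell (-0.98, limma adjusted p = 1.80e-04) and IVL rose (0.43, 0.0130). Members of the SPRR2 group are close paralogs whose shared reads could be split.

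Annexins, the membrane-binding partners of the family, moved in both directions, as did rows at large (30.7% of all rows tested rose and 26.2% fell). Of 13 in the table, 10 were tested, of which 4 rose and 4 fell (median log2 difference -0.08). ANXA2, the partner of S100A10, was at 738 ± 17 FPKM in parental and 638 ± 49.1 in adapted cells, a log2 difference of -0.21 that was not past the threshold (95% interval -0.41 to -0.02, limma adjusted p = 0.0599). It passed without adapted replicate 1 (-0.15, adjusted p = 0.0499) or adapted replicate 3 (-0.26, adjusted p = 0.0346). ANXA1, the partner of S100A11, fell by 1.04 on the log2 scale (SE 0.08, adjusted p = 6.08e-05), from 726 ± 13.2 to 354 ± 28.6 FPKM. ANXA4 (-0.90) and ANXA9 (-0.58) also fell. ANXA8 (1.5), ANXA8L1 (1.52) and ANXA3 (0.64) rose, and ANXA8 and ANXA8L1 are near-identical copies whose reads may be shared.

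Among receptors of secreted S100 proteins, 6 of 9 were tested, of which 3 rose and 2 fell (median log2 difference 0.18). The shares over all rows tested were 30.7% that rose and 26.2% that fell. MCAM, a cell adhesion receptor that binds S100A8 and S100A9, had a log2 rise of 2.34 (limma adjusted p = 5.36e-06, higher in 3 of 3 samples), from 11.2 FPKM in each parental sample to 71.1, 53.7 and 58.1 FPKM. ALCAM (0.60, adjusted p = 0.00125) and NPTN, a receptor of S100A8 (0.27, 0.00669), rose. LY96, the co-receptor of TLR4, fell by 0.42 (0.0112), and TLR4 itself, CD36 and CD33 were below the filter. AGER, which encodes RAGE, fell by 0.31 (0.0207), a call that was lost without parental replicate 1 (0.0716), parental replicate 2 (0.0873), adapted replicate 2 (0.0551) or adapted replicate 3 (0.0506). BSG, a receptor of S100A9, had a log2 difference of 0.09 (95% interval -0.09 to 0.28, adjusted p = 0.344).

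Of 17 intracellular partners, 13 were tested, and 3 rose and 6 fell (median log2 difference -0.18), where 30.7% and 26.2% of all rows tested did. MYH9, the myosin heavy chain bound by S100A4, rose by a log2 difference of 1.16 (limma adjusted p = 9.58e-06), EZR, the ezrin bound by S100P, by 0.66 (0.00165), and AHNAK, a scaffold bound by the complex of S100A10 and annexin A2, by 0.37 (0.00321). TGM2, a protein cross-linking enzyme, fell by 2.08 (1.85e-05), from 105 ± 3.17 to 24.4 ± 4.54 FPKM. MDM2 fell by 0.60 (0.00134), as did CYBA, a subunit of the NADPH oxidase to which calprotectin binds, by 0.58 (0.00160). CACYBP, the calcyclin-binding protein, had a log2 difference of 0.05 (adjusted p = 0.492).

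The list of regulators of S100A7 to S100A9 holds transcription factors, cytokines, cytokine receptors and ligands of EGFR that are linked to these genes in epithelium. Their part in the S100 values was not tested. Of 25 tested, 15 fell, 4 rose and 6 were not past the threshold (median log2 difference -0.78), where 26.2% of all rows tested fell and 30.7% rose. CEBPA, FOS, IL1A and TNF passed the filter only through their parental samples and GRHL3 only through its adapted samples, so the count and the median are a description. In the fit with no filter, limma adjusted p was 3.31e-05 for FOS, 1.90e-06 for IL1A and 0.00501 for GRHL3. The cytokine IL1A, an inducer of the 3 genes in keratinocytes, was at 56.2, 52.5 and 51.8 FPKM in parental and at 0.891, 0.923 and 0.977 FPKM in adapted samples (log2 difference -4.82, limma adjusted p = 1.14e-07). IL1B went from 51.6 ± 1.32 to 1.57 ± 0.340 FPKM (-4.36, adjusted p = 5.52e-07). The AP-1 members FOS (-2.37, 1.99e-06) and JUNB (-2.0, 4.93e-06) and the C/EBP factors CEBPB (-1.64, 1.07e-05) and CEBPD (-1.77, 1.66e-05) fell, as did HIF1A (-1.41, 1.54e-04). Of these, JUNB, CEBPB, CEBPD and HIF1A were named after their values were seen. The 6 not past the threshold were RELA (0.06), RELB (0.04), FOSL1 (-0.82), JUND (-0.13), IL1R1 (-0.19) and OSMR (0.00), with limma adjusted p of 0.0725 to 0.986. GRHL3, a factor of epidermal differentiation, rose by 1.60 (0.00120) and the IL-17 receptor chain IL17RC by 0.94 (4.11e-04). JUN was higher by 0.32 (0.0469), and this call was lost without any of the 3 parental replicates (0.0848, 0.125 and 0.120), without adapted replicate 2 (0.0521), with no filter (0.0842) and with median centring (0.0605).

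**Figure D5:**
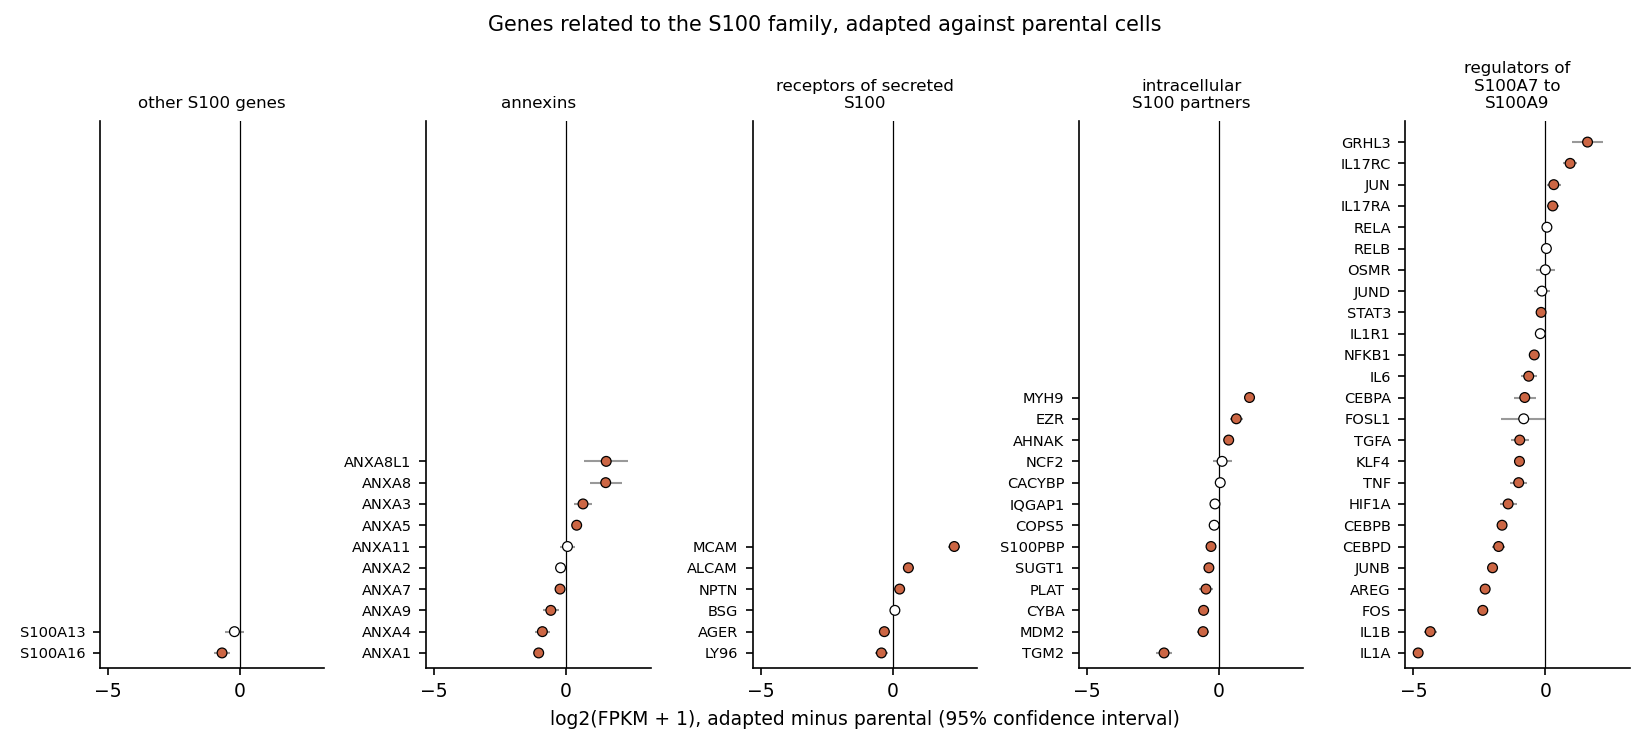
Log2 difference, adapted minus parental (x axis), for the tested genes of 5 lists: other S100 genes, annexins, receptors, intracellular partners and regulators. Bars are 95% intervals and filled points are past the limma threshold. IL1A and IL1B are the lowest points of the regulators, and MCAM is the highest of the receptors.

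Since calprotectin is also a neutrophil product, markers of other cells were read. Of 14 myeloid markers, none passed the filter and 5 were at 0 in all samples (FCGR3A, FCGR3B, SPI1, AIF1 and TYROBP), with a summed level of 1.99 to 2.12 FPKM in parental and 0.691 to 1.15 FPKM in adapted samples. Of 6 lymphoid markers, none passed and 3 were at 0 in all samples, with sums of 0.357 to 0.615 FPKM and 0 to 0.0840 FPKM. S100A9 alone was at 1897 to 2034 FPKM in the same parental samples. The epithelial markers summed to 3981 to 4034 FPKM in parental and 3655 to 4122 FPKM in adapted samples, with EPCAM, keratins and NKX2-1 in both groups, as the label of a lung epithelial line has it, while the surfactant gene SFTPB did not exceed 0.29 on the log2 scale in any sample.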

How the data were processed

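RNA sequencing of 3 parental and 3 adapted samples was analysed from 1 table in which the authors deposited a log2 value per gene and sample. The unit is not named. Reading it as log2(FPKM + 1) rests on the numbers: undoing the log and the added 1 left 6 decimals in all but 147 of 27216 rows, and none of the 177 listed genes found was among the 147. The submitters' processing notes list hg38, Bowtie2 2.1.0, STAR and edgeR, without roles. The authors' methods name DESeq2, which needs counts, so limma 3.58.1 in R 4.3.3 (eBayes with an intensity trend, unpaired) was fitted to the 12656 rows with a mean of at least 1, with Benjamini-Hochberg adjustment over all of them and a threshold of 0.05. It was run on simulated data with independent noise and a small share of changed rows. Far more rows differed in the deposited values, so the simulation does not check the calls made here.

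Fold changes are ratios of mean FPKM, and log2 differences carry the added 1, so those of low genes are understated. The members and gene lists were chosen with earlier results of these data known, and lists were given no test of their own. Genes were named by a rule: the 10 members, the other S100 genes, the receptors, up to 3 genes per list and direction past the threshold without overlap between groups, and the 5 genes nearest in profile to S100A7 and to S100A8. ANXA2, BSG, CACYBP, PGLYRP4, CHTOP, JUNB, CEBPB, CEBPD, HIF1A, SPRR2E and IVL were named in addition, after their values were seen. So were the regulators not past the threshold. A result for 1 intracellular partner is not reported here, and its list was counted without it. Gene positions are those of GENCODE v29 on GRCh38, and promoters and their sequences those of RefSeq on GRCh38.p14, so coordinates of the 2 were kept apart. Intervals are 95% limma intervals. Alternatives were another pseudocount (0.1), no or a stricter filter (3), other scalings and fits, the replicate number as a block, and leaving out each sample.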

Additional observations from a re-analysis of the deposited data

How the results depend on the processing

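With the stricter filter, 4532 rows differed between the groups in place of 7202, the members numbered 6 lower and 1 higher in place of 8 and 2 with a median log2 difference of -2.10 in place of -1.68, and none (0) of the 6 cornified envelope genes past the limma threshold remained, since none of them had a mean of at least 3. Without the filter, 8759 rows differed and 3 of the other S100 genes passed in place of 1. Leaving out each sample in turn gave 5778 to 8371 rows, a median for the members of -1.80 to -1.56, a difference in summed FPKM of -2510 to -2364 around -2438, 1 to 2 other S100 genes (2 without any of the adapted replicates, where S100A7A passed the filter) and 3 to 6 neighbours of the cluster (3 without parental replicate 1 or 2). With the replicate number as a block, 6761 rows differed. No call changed among 52 tested genes named in the text, which leave out the 6 regulators not past the threshold. The replicate numbers share no more than a name: residuals of same-numbered samples correlated at -0.0509, -0.0309 and -0.0203, and no sample correlated best with its own number. Of these 52 genes, 47 kept their side of the threshold in each of the 15 alternatives that tested them. AGER, CRTC2, SNAPIN and JUN did not, JUN also without a trend (limma adjusted p = 0.0546), and ANXA2 passed it with median centring (0.0491) and without a trend (0.0480). Of these changes of call, 15 lost and 4 gained significance and 0 turned direction. No member changed sign in the scalings tried. The depth behind each value is unknown.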

Other observations

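Markers of other epithelial and stromal states moved in both directions beside the S100 genes. Of 9 squamous markers, 3 passed the filter (KRT16 and DSC3 through their adapted samples): KRT16 (log2 difference 1.84, limma adjusted p = 0.0113) and DSC3 (1.46, 2.36e-04) rose, and TP63 fell (-0.96, 0.0115), with a summed level of 5.47 to 6.78 FPKM in parental and 6.41 to 19.4 FPKM in adapted samples. In the fit with no filter, limma adjusted p was 0.0311 for KRT16 and 0.00135 for DSC3. Below the filter, the squamous marker KRT14 was at 0.05 ± 0.05 in parental and 1.38 ± 0.48 in adapted samples on the log2 scale (SD, n = 3). KRT6A went the other way, from 1.35 ± 0.13 to 0.23 ± 0.01. Of 8 fibroblast and endothelial markers, only COL1A1 passed the filter, and it rose (1.12). Their summed level was 4.29 to 5.01 FPKM in parental and 9.07 to 12.7 FPKM in adapted samples, and of those below the filter CDH5 was at 0.21 ± 0.05 in parental and 1.71 ± 0.47 in adapted samples and PECAM1, the other way, at 1.22 ± 0.21 and 0.09 ± 0.02, on the log2 scale (SD, n = 3). Where 30.7% of all rows tested rose and 26.2% fell, 2 of 9 epithelial markers tested rose and 4 fell. Among them were KRT7 (1.07), NKX2-1 (0.47), NAPSA (-0.81), KRT19 (-0.75) and KRT18 (-0.57). The part of these shifts in the S100 values was not tested.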
